A study of Mus musculus with 6 samples.

Results

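Enzymes that write and erase acetyl and methyl marks on chromatin were described as a set of 40 genes in the ventral dentate gyrus of mice. The set was chosen by name, with earlier results of these data known. It holds 11 histone deacetylases, 7 sirtuins, 7 lysine acetyltransferases, 3 DNA methyltransferases, 3 TET dioxygenases, 4 methyltransferases of lysine 9 and 2 of lysine 27 on histone H3, and 3 histone demethylases. All 40 symbols were found among the 24062 in the count files, and all 40 passed the filter on low counts, which kept 14058 genes. RNA came from male C57black 6 mice that were either unstressed controls or had been given chronic restraint stress, with 3 biological replicates in each group, which are called control replicates 1 to 3 and stress replicates 1 to 3. No genetic change, drug, age or duration of restraint is given in the labels, and whether animals were pooled is not stated. The p-values measure the spread between these samples.

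Acetylation of histone tails loosens chromatin and is read by bromodomain proteins, and deacetylases and sirtuins remove it. DNA methyltransferases place methyl groups on cytosine in CG dinucleotides, and TET enzymes oxidise them. Methylation of lysine 9 or lysine 27 on histone H3 marks silent chromatin. In the hippocampus these enzymes are known for roles in memory, adult neurogenesis and the lasting effects of stress. All of the results here are transcript levels, and they give no measure of enzyme activity or of the marks themselves.

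The libraries held 8305753 to 10107953 gene counts. Levels are given as CPM, which are gene counts divided by library size after edgeR's TMM scaling, and a count of 0 would allow 0.297 to 0.361 CPM. The 10 markers of dentate granule neurons were all detected in every library, and their summed level was 1201 to 1515 CPM in controls. In stress replicates 1, 2 and 3 it was 710.2, 1389 and 1583 CPM. Stress replicate 1 stood apart in other ways, with 4853 CPM summed over 10 choroid plexus markers against 25.4 to 33.1 CPM in the other libraries, and 981.5 CPM over 9 striatal neuron markers against 200.3 to 221.1 CPM. Otx2, Aqp1, Kcnj13 and Slc4a5 of the choroid plexus list were at 0 in some libraries. For members that were highest or lowest in this library, log2 differences without it are given as well.

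The windows upstream of these genes differ widely in CG content, the substrate of the DNA methyltransferases and TET enzymes in the set. RefSeq windows on GRCm38.p6, taken here as the 250 bases before each transcript start, were matched for 35 of the 40 genes, which have 50 windows. These held a median of 17 CG, from 0 to 51, where the 32851 windows of all genes held a median of 6. The windows of all genes were not matched to the set in gene type or level. Some of the 50 windows lie in annotated exons, so the contrast is not shown to be particular to these enzymes. Shown are both windows of Hdac9, the member with the smallest p, that of Kat2a, the only member higher in every stress library than in every control, and that of Tet2, which had the most CG. The strand is that of the gene, and capitals mark each CG.
Hdac9, distal start, chr12:34917096-34917345, minus strand: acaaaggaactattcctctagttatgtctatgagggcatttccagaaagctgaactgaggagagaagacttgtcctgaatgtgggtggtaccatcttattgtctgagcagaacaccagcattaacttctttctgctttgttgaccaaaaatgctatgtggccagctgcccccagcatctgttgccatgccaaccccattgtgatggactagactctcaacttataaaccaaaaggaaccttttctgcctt
Hdac9, internal start, chr12:34528890-34529139, minus strand: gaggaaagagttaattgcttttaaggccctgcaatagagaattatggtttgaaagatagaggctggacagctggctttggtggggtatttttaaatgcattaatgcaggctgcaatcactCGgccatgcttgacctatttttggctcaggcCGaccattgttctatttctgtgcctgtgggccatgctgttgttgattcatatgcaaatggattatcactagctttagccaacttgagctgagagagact
Kat2a, chr11:100712468-100712717, minus strand: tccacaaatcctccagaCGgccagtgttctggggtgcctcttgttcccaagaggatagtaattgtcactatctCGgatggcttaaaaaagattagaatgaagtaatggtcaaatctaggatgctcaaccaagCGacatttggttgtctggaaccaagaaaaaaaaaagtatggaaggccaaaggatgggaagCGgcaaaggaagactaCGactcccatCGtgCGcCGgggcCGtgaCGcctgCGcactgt
Tet2, chr3:133544391-133544640, minus strand: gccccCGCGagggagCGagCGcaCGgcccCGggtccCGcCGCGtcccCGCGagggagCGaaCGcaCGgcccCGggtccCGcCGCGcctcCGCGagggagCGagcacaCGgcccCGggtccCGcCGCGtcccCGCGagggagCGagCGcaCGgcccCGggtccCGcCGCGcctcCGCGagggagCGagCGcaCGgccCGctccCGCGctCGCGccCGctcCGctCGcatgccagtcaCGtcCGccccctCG
The windows of Hdac9 held 0 and 2 CG, and 18.8% of all windows held fewer than 2. Kat2a's window held 11, and 64.4% of all windows held fewer. That of Tet2 held 51, and 99.9% held fewer. In GENCODE release M21 the internal window of Hdac9 and the window of Tet2 lie in introns of their own genes, and the other windows shown lie outside annotated genes. No methylation was measured here.

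To compare genes, CPM were divided by the length of all annotated exons in kilobases. On this scale the set spanned from Hdac11, at 65.7 ± 1.9 in controls (SD, n = 3), to Dnmt3b, at 0.361 ± 0.115. Hdac11, the only class IV deacetylase, ranked first of 40 with each of the 3 exon lengths tried (GENCODE basic exons, all exons and the longest transcript). 690 of its 2653 exon bases are overlapped by Gm14573 and Gm44002 on the opposite strand, and the strand setting of the counting is not given, so some of its reads may be theirs. Hdac3, the catalytic subunit of the NCoR and SMRT corepressors, followed at 38.9 in controls, and Ehmt2, which encodes the lysine 9 methyltransferase G9a, at 37.5. Their ranges over the 6 libraries overlapped, from 37.8 to 45.9 for Hdac3 and from 36.6 to 43.2 for Ehmt2. By all exons Ehmt2 was the higher, at 29.18 against 20.31 as means of the 6 libraries, so their order is not settled. Next came Kdm1a, the demethylase LSD1 of the CoREST complex, at 27.6 to 31.6 CPM per kb. Ranks, shares and ratios per length are given here by basic exons, and some moved with another exon length. The order changed for Hdac3 above Ehmt2, Sirt3 above Sirt2, Kdm1a above Hdac2, Hdac5 above Hdac2 and Hdac4 above Hdac9. Sirt5 as the lowest sirtuin and Kat2b as the lowest acetyltransferase changed too. As means of the 6 libraries, Ezh1 and Ezh2 were at 15.35 and 4.50 by basic exons but 12.54 and 1.89 by all exons.

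**Figure D1:**
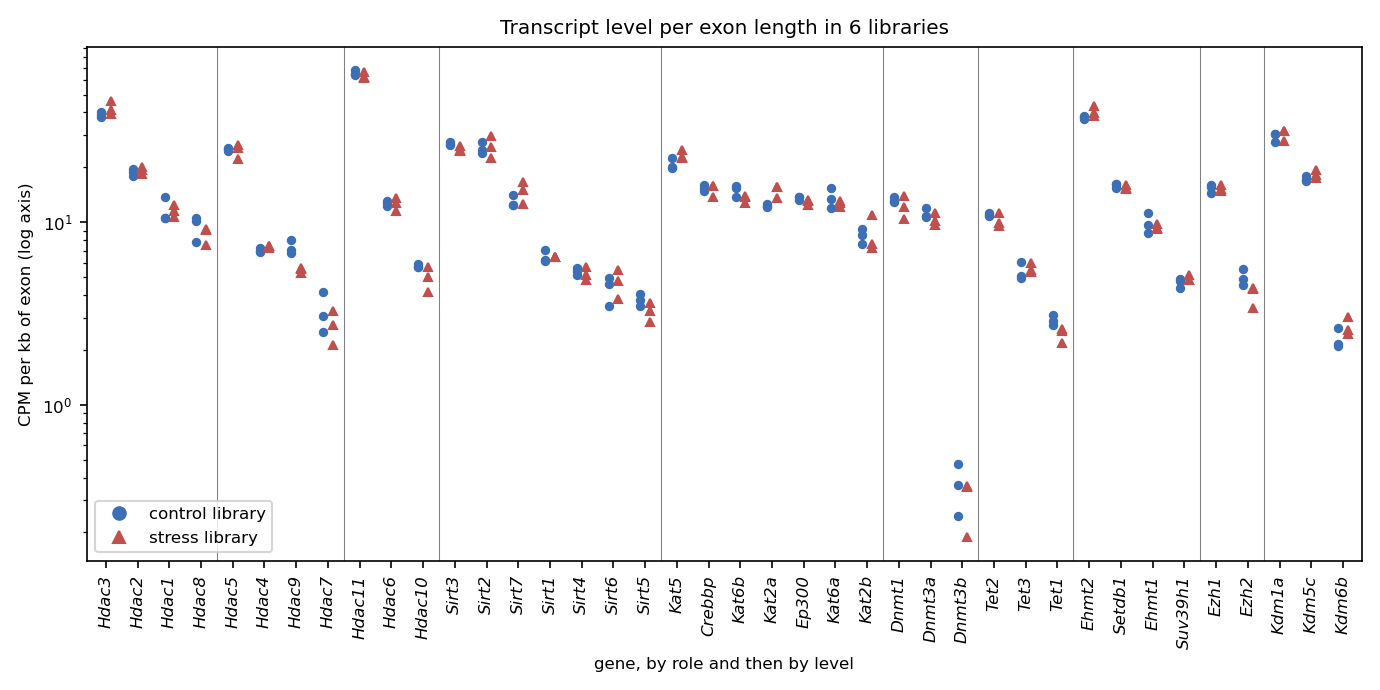
Level of each of the 40 genes as CPM per kb of exon on a log axis, with 1 circle for each of 3 control libraries and 1 triangle for each of 3 stress libraries, ordered by role and then by level. Hdac11 lies highest, at 61.6 to 67.9, and Dnmt3b lowest, at 0.188 to 0.476.

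Close relatives were present at unequal levels, and the shares given next hold for basic exons. By all exons Dnmt1 and Dnmt3a were at 10.85 and 6.39 CPM per kb as means of the 6 libraries, against 12.7 and 10.73 by basic exons. Of the per-length sum of the 11 deacetylases, Hdac11 made up 32.0% ± 1.2 in controls, Hdac3 18.9% ± 0.2 and Hdac5 12.2% ± 0.3. Among the DNA methyltransferases, the maintenance enzyme Dnmt1 made up 53.6% ± 0.9 and the de novo enzyme Dnmt3a 45.0% ± 0.6, while the de novo enzyme Dnmt3b made up 1.45% ± 0.40. Dnmt3b rested on only 7 to 17 counts per library. Among the TET genes, Tet2 made up 57.2% ± 2.3, and Tet3 27.8% ± 2.1 in controls, with Tet1 at 14.7% to 15.3%.

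Ratios of paralogs were also taken within each library, again by basic exons. The per-length level of Ezh1 was 2.91 to 4.67 times that of Ezh2 over the 6 libraries, where Ezh2 is the form that dividing cells use most. That of Ehmt2 was 3.27 to 4.68 times that of Ehmt1, its partner in the G9a-GLP complex. Crebbp and Ep300, the paralogous coactivators CBP and p300, stayed at a ratio of 1.11 to 1.20, and Kat6a and Kat6b, whose order changes with the exon length used, at 0.866 to 0.996. Hdac2 was at 1.42 to 1.86 times Hdac1, with which it shares the Sin3, NuRD and CoREST complexes. The last ratio and that of Crebbp to Ep300 were larger by all exons. As means of the 6 libraries, Hdac2 and Hdac1 were then at 17.97 and 6.87 CPM per kb, and Crebbp and Ep300 at 12.21 and 8.89.

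Stress against control was tested by edgeR's quasi-likelihood test over all 14058 genes with Benjamini-Hochberg adjustment. None of the 40 genes passed an adjusted p of 0.05, where 0.0285% of all tested genes did. At an unadjusted p under 0.05 the set held 3 genes, or 7.5%, against 8.71% of all genes. Among the 40, limma-voom called 0, against 0.00711% of all tested genes. DESeq2 and edgeR's exact test each called 1, Hdac9, against 0.762% and 0.932% of all tested genes. All 3 stress libraries lay above all 3 controls for 1 member, or 2.5%, against 6.76% of all tested genes. They lay below for 4 members, or 10%, against 7.84%. In either direction this was 12.5% of the set and 14.6% of all genes, so the number of members that stood apart was no more than the background.

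Differences between the groups were small. The median log2 fold change of the 40 was -0.026, against 0.004 over all tested genes, with 25 negative and 15 positive. The 95% interval of the limma-voom fit lay within a change of 1.5-fold either way for 36 of the 40, against 71.4% of all tested genes. The exceptions were Hdac9, Ezh2, Hdac7 and Dnmt3b, and for Dnmt3b the interval also passed 2-fold. The median coefficient of variation over the 6 libraries was 7.95% for the set and 10.9% for the 12282 other genes in its range of levels. That range, from 1.43 to 171.6 CPM, has its low end set by Dnmt3b and holds most tested genes. Neither these genes nor all tested genes were matched to the set in level, so the spreads cannot be compared at equal levels.

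**Figure D2:**
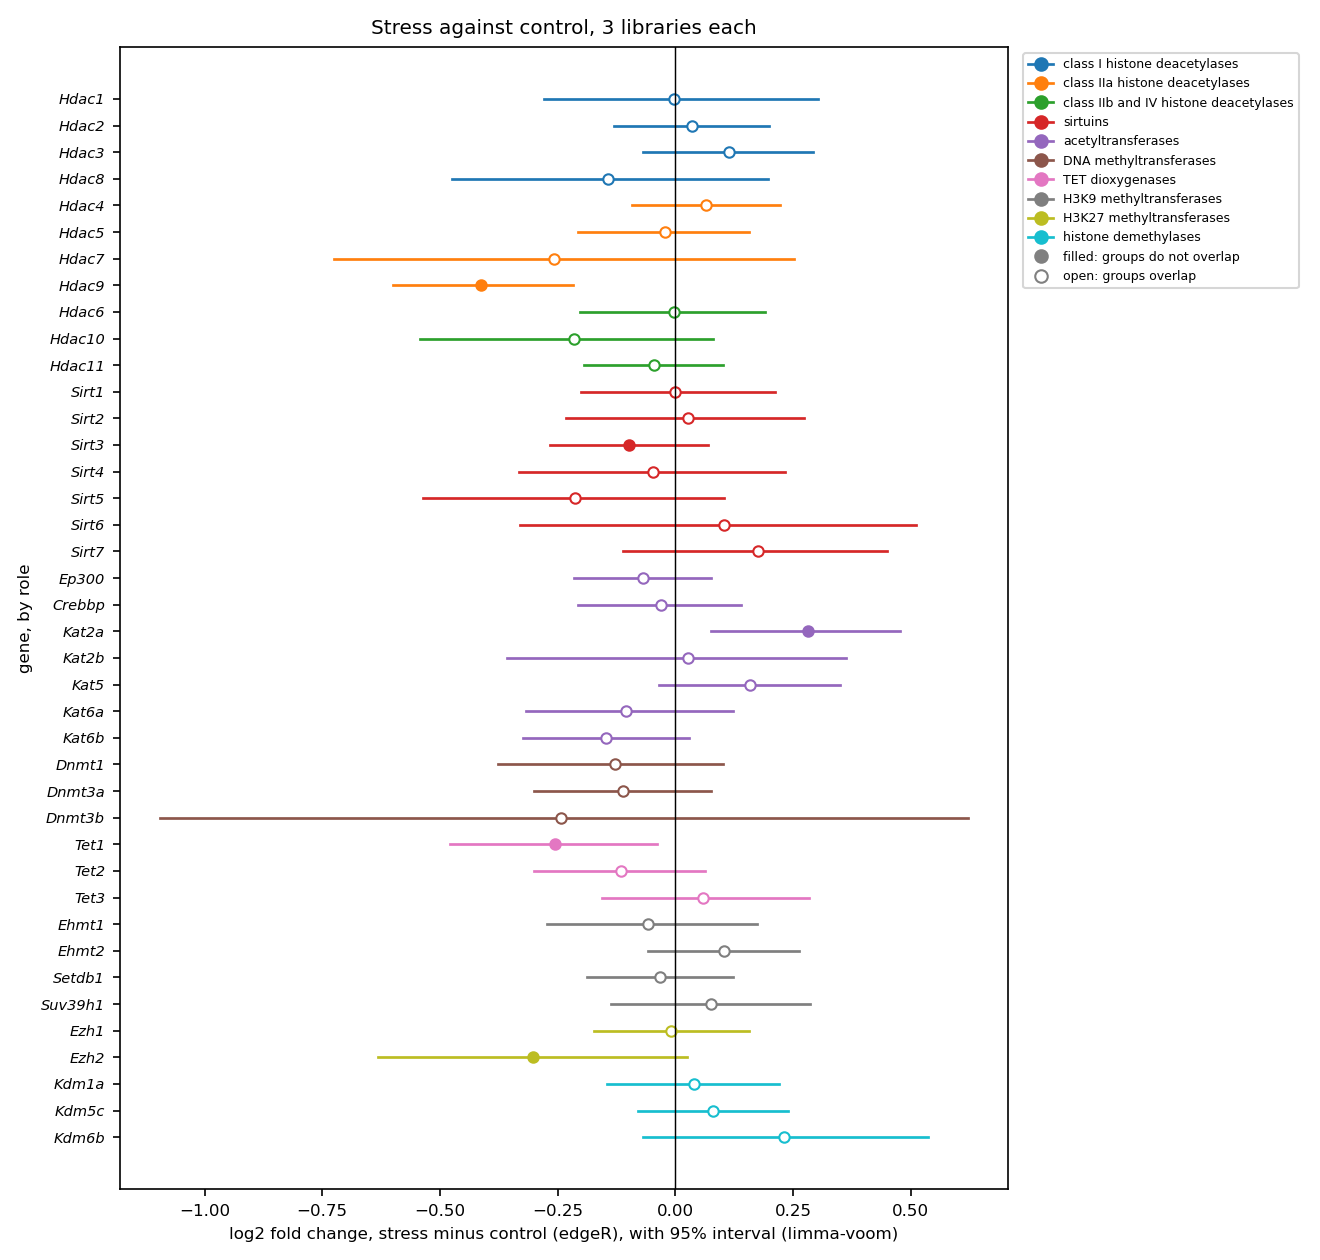
Log2 fold change of stress against control for each of the 40 genes, by role, as a point from edgeR with the 95% interval of a limma-voom fit as a line (n = 3 libraries per group). Filled points are the 5 genes whose groups do not overlap, and the intervals of Hdac9, Kat2a and Tet1 lie to 1 side of 0.

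Hdac9 had the smallest p of the set. It encodes a class IIa deacetylase, a group with weak catalytic activity that shuttles between nucleus and cytoplasm and represses MEF2 transcription factors. The gene lies on chromosome 12 from 34047580 to 34917095 (GRCm38, minus strand), and no other annotated gene overlaps its exons. Its level was 75.5, 72.6 and 85.4 CPM in the controls, taken here and throughout in the order of replicates 1, 2 and 3. It was 56.5, 60.1 and 58.9 CPM in the stress libraries, so the groups did not overlap and the stress libraries lay close together. Its mean was 77.8 ± 6.75 CPM in controls and 58.5 ± 1.80 CPM in stress (SD, n = 3). Its fitted difference on the log2 scale was -0.41 (SE 0.08, 95% interval -0.60 to -0.22), and edgeR's quasi-likelihood test gave an adjusted p of 0.215. DESeq2 gave 0.049 and edgeR's exact test 0.0179. Its unadjusted p ranked 54 of 14058 in the edgeR fit. With stress replicate 1 left out the value was -0.39 and edgeR's adjusted p 0.0879, so the difference was about as large without that library. With control replicate 3 left out, the highest library, it was -0.33 and the adjusted p 0.707. In bulk tissue, fewer cells of a type and less RNA per cell cannot be told apart.

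The other class IIa genes had overlapping groups, and whether they differ from Hdac9 in their response was not tested. Hdac4 was at 55.8 to 58.6 CPM in controls and 58.2 to 60.1 CPM in stress, a log2 fold change of 0.06 (95% interval -0.09 to 0.22). Hdac5, the class IIa gene with the highest level per length, was at 138.7 to 143.1 CPM in controls. It was at 124.7, 148.3 and 143.5 CPM in stress replicates 1, 2 and 3, a log2 fold change of -0.02 (95% interval -0.21 to 0.16) that turned to 0.05 with stress replicate 1 left out. Hdac7, the lowest of the 4, ranged from 12.5 to 20.7 CPM in controls and from 10.6 to 16.2 CPM in stress. Stress minus control was -0.26 on the log2 scale, and -0.11 with stress replicate 1, the lowest library, left out. With control replicate 1, the highest library, left out it was -0.04. Its interval of -0.72 to 0.25 leaves a change of the size of Hdac9's undecided. The per-length ratio of Hdac4 to Hdac9 was 0.869 to 1.02 in controls and 1.3 to 1.4 in stress, and that of Hdac5 to Hdac9 was 3.08 to 3.75 and 4.19 to 4.69. Neither pair of ranges overlapped, as the values of Hdac9 already imply.

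Genes known to work with class IIa deacetylases were taken as a list of 17 MEF2 factors and kinases, 16 of them tested. None passed, and its median log2 fold change was -0.004. Stress libraries lay above controls for Mef2a alone (log2 fold change 0.07), and below for Mef2c and Camk2d. Over all tested genes, 6.76% lay above and 7.84% below. Camk2d, a calcium/calmodulin-dependent kinase subunit and the list's gene with the smallest p, was at 128.7, 81.7 and 143.7 CPM in controls and 48.4, 63.2 and 52.5 CPM in stress, a log2 fold change of -1.11 (SE 0.21) with an adjusted p of 0.202 by edgeR and 2.11e-05 by DESeq2. Mef2c, a MEF2 factor of neurons named, like Mef2a, after its values were seen, was at 388.3, 320.0 and 395.6 CPM in controls and 189.8, 274.9 and 221.7 CPM in stress. The log2 difference was -0.69 (SE 0.14), and edgeR's adjusted p was 0.215. Every stress library lay below every control for both genes, with stress replicate 1 lowest.

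**Figure D3:**
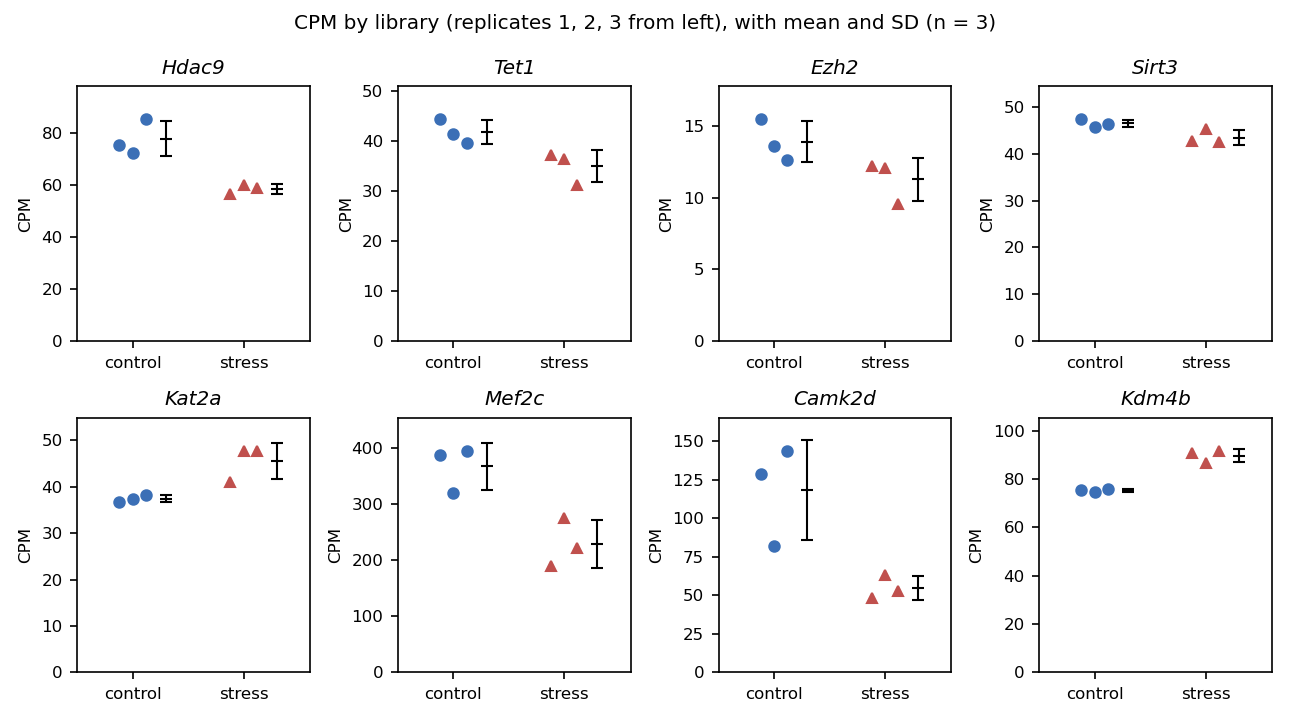
CPM in each library for the 5 members whose groups did not overlap (Hdac9, Tet1, Ezh2, Sirt3 and Kat2a) and for Mef2c, Camk2d and Kdm4b, each axis starting at 0. Circles are controls and triangles stress libraries, in the order of replicates 1, 2 and 3, and the black marks give mean and SD (n = 3). The groups do not overlap in any panel, and in Ezh2 and Sirt3 they lie less than 1 CPM apart.

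Markers of neurons from neighbouring regions were compared beside these values. Of 10 neocortical and entorhinal neuron markers, a list chosen after earlier results of these data were known, 5 lay below all controls, 1 above, and none passed, where 7.84% of all tested genes lay below. Their summed level was 687.8 to 730.9 CPM in controls and 634.9 to 690.2 CPM in stress, and no marker was at 0. Of 8 tested thalamic and habenular markers, chosen likewise, 4 lay below all controls, and the sum over all 10 was 379.4 to 418.1 CPM in controls and 213.1 to 324.5 CPM in stress. Gbx2 and Pou4f1 were at 0 in some libraries. Lower values were not limited to neuron lists, since 4 of 10 astrocyte markers (Gjb6, Fgfr3, Gja1 and Aldh1l1) also lay below all controls, with none passing. For Aldh1l1 the groups all but touched. The astrocyte sum was 2443 to 2816 CPM in controls and 2210 to 2477 CPM in stress, and no marker was at 0. Below all controls there were also 3 of 10 endothelial and mural markers. It was 0 of 10 for each of the oligodendrocyte, microglia and dentate granule neuron lists. The part of these cells in the values of Hdac9, Mef2c and Camk2d was not tested.

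The class I deacetylases, which are mostly nuclear and sit in corepressor complexes, had log2 fold changes of -0.14 to 0.11, and their groups overlapped. Hdac3, the highest of them per length, was at 81.7, 76.9 and 78.6 CPM in controls and 79.7, 93.3 and 83.8 CPM in stress, with stress replicate 2 the highest. Hdac8, the lowest, was at 20.3, 19.7 and 15.1 CPM in controls and 17.6, 17.8 and 14.5 CPM in stress. For Hdac1 and Hdac2 the log2 fold changes were -0.003 and 0.03.

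Of the remaining deacetylases, Hdac11 was at 172.0, 170.7 and 180.0 CPM in controls and 166.4, 176.7 and 163.5 CPM in stress, with an interval of -0.19 to 0.10. Hdac6, a cytoplasmic enzyme that acts on tubulin, had a log2 fold change of -0.002. Hdac10, the lowest of this group per length, was at 14.2, 14.8 and 14.3 CPM in controls and 10.4, 14.3 and 12.6 CPM in stress. The log2 difference was -0.22 (SE 0.14) with edgeR's adjusted p at 0.735, and -0.10 once stress replicate 1, the lowest library, was left out.

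Sirtuins remove acyl groups at the cost of NAD. None passed, and their median log2 fold change was -0.0004. Sirt3, the main deacetylase of mitochondria and the highest per length, was at 47.5, 45.9 and 46.4 CPM in controls and 42.8, 45.3 and 42.5 CPM in stress. Those groups did not overlap, by a margin of less than 1 CPM. The log2 difference was -0.10 (SE 0.07), and edgeR's adjusted p was 0.790. 566 of its 1724 exon bases are overlapped by Ric8a and Psmd13 on the opposite strand. Sirt1, a nuclear sirtuin that responds to energy state, was at 27.03 to 31.2 CPM in controls and 28.5 to 28.6 CPM in stress. Sirt2, a cytoplasmic sirtuin abundant in oligodendrocytes, was at 62.0, 55.9 and 54.2 CPM in controls and 66.5, 58.3 and 50.4 CPM in stress. It was highest in stress replicate 1 and lowest in stress replicate 3, where the sum of 10 oligodendrocyte markers was also highest (4818 CPM) and lowest (2048 CPM), against 2554 to 3183 CPM in the other libraries. The part of oligodendrocytes in this was not tested. Sirt2's log2 difference of 0.03 turned to -0.08 with stress replicate 1 left out. Sirt5, a mitochondrial desuccinylase and the lowest per length, was at 11.98, 11.1 and 10.3 CPM in controls and 8.41, 10.7 and 9.66 CPM in stress, with stress replicate 1 the lowest. Stress minus control was -0.21 on the log2 scale, and -0.13 with that library left out. Sirt4, also mitochondrial, and the nuclear Sirt6 and Sirt7 had overlapping groups, at log2 fold changes of -0.05, 0.10 and 0.18. The 8 tested NAD synthesis genes had a median of -0.005 and none passed. Nmnat2, a neuronal NAD synthase with the list's smallest p, was at 227.8 to 233.2 CPM in controls and 216.6 to 221.1 CPM in stress, a log2 fold change of -0.08.

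Kat2a was the acetyltransferase whose stress libraries all lay above the controls. It encodes GCN5, the catalytic subunit of the SAGA and ATAC coactivator complexes, and lies on chromosome 11 from 100704746 to 100712465. It was at 36.8, 37.5 and 38.2 CPM in controls and at 41.2, 47.7 and 47.8 CPM in stress, where replicate 1 was closest to the controls. The log2 difference was 0.28 (SE 0.09, 95% interval 0.08 to 0.48), and edgeR's adjusted p was 0.449. With stress replicate 1 left out it was 0.35, at an adjusted p of 0.0982 by edgeR. Its paralog Kat2b, which encodes PCAF and is the lowest of the group per length, was at 35.5, 42.7 and 39.4 CPM in controls and 51.1, 35.3 and 33.7 CPM in stress. The difference of 0.03 on the log2 scale turned to -0.19 with stress replicate 1, the highest library, left out.

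Kat5, which encodes TIP60 and is the highest of the group per length, was at 44.9, 50.7 and 45.4 CPM in controls and 55.7, 51.2 and 50.6 CPM in stress, a log2 fold change of 0.16 (SE 0.08). The lowest stress library and control replicate 2 were nearly equal, and 426 of its 2253 exon bases are overlapped by Rnaseh2c on the opposite strand. Kat6b, of the MYST family, was at 124.0, 121.8 and 108.6 CPM in controls and 100.9, 109.1 and 109.8 CPM in stress, a log2 fold change of -0.15 (SE 0.08). Adjusted p-values by edgeR were 0.666 for Kat5 and 0.645 for Kat6b. Ep300 and Crebbp, whose products acetylate lysine 27 of histone H3 at enhancers, had log2 fold changes of -0.07 (95% interval -0.21 to 0.08) and -0.03 (-0.21 to 0.14), and Kat6a one of -0.10 (-0.32 to 0.12). Crebbp's value turned to 0.03 with stress replicate 1, its lowest library, left out.

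All 3 DNA methyltransferases had negative log2 fold changes, none past the threshold. Dnmt1 was at 86.4, 82.7 and 81.4 CPM in controls and 65.6, 87.9 and 75.9 CPM in stress, so the log2 difference of -0.13 became -0.03 with stress replicate 1 left out. Dnmt3a was at 118.4, 107.2 and 105.9 CPM in controls and 100.2, 111.1 and 95.5 CPM in stress, at -0.11 (95% interval -0.30 to 0.08). For Dnmt3b, at 2.06, 1.57 and 1.06 CPM in controls and 1.53, 0.815 and 1.56 CPM in stress, a difference was not detectable at this depth.

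Tet1 was the TET gene whose groups did not overlap. It was at 44.4, 41.5 and 39.58 CPM in controls and at 37.2, 36.6 and 31.3 CPM in stress. Every stress library lay below every control. The gene lies on chromosome 10 from 62804570 to 62908996. The log2 difference was -0.26 (SE 0.10, 95% interval -0.48 to -0.04), and edgeR's adjusted p was 0.532. The value ran from -0.30 to -0.18 with 1 library left out at a time. Tet2, the highest of the 3 per length, was at 101.2, 104.0 and 99.9 CPM in controls and 87.7, 103.6 and 90.6 CPM in stress, and its groups overlapped. Tet3 had a log2 fold change of 0.06. Of 23 tested methyl-CpG readers and DNA methylation partners none passed, and their median was -0.04. Stress libraries lay above controls for none of them and below for 3, Gadd45a and Cxxc4 among these. Over all tested genes, 6.76% lay above and 7.84% below. Cxxc4, a CXXC zinc finger gene with the list's smallest p, was at 31.0 to 36.5 CPM in controls and 26.1 to 31.0 CPM in stress, so the groups all but touched, at a log2 fold change of -0.20. Gadd45a, named after its values were seen, had a log2 fold change of -0.36.

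Ezh2, the catalytic subunit of Polycomb repressive complex 2 (PRC2), was lower in each stress library than in each control. It was at 15.5, 13.6 and 12.7 CPM in controls and at 12.2, 12.1 and 9.56 CPM in stress. These rest on 92 to 139 counts per library, and the margin between the groups was less than 1 CPM. The gene lies on chromosome 6 from 47530139 to 47595341. The log2 difference was -0.30 (SE 0.14, 95% interval -0.63 to 0.02) with edgeR's adjusted p at 0.611, and it was -0.19 with stress replicate 3, the lowest library, left out. 92 exon bases are overlapped by Gm26625 on the opposite strand. Ezh1, the form typical of cells that no longer divide, was at 97.8, 87.8 and 95.3 CPM in controls and 89.9, 92.1 and 96.9 CPM in stress, a log2 fold change of -0.01 (95% interval -0.17 to 0.16).

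Of 7 tested genes in a list of PRC2 partners and the lysine 27 demethylase none passed, with a median of -0.10. Stress libraries lay below controls for 2 of them, Eed and Mtf2, where 7.84% of all tested genes lay below. Mtf2, an accessory subunit with the list's smallest p, was at 89.2 to 96.8 CPM in controls and 80.6 to 86.6 CPM in stress, a log2 fold change of -0.15. Eed, a core subunit named after its values were seen, was at 16.0 to 17.3 CPM in controls and 13.8 to 15.5 CPM in stress, at -0.17. The 10 proliferation markers summed to 22.1 to 27.7 CPM in controls and 19.9 to 39.8 CPM in stress, with Aurkb at 0 in some libraries. Of 6 of them that were tested none passed. Mki67, the one with the smallest p, lay above all controls, as 6.76% of all tested genes did. It was at 4.12, 4.22 and 2.23 CPM in controls and 9.71, 5.82 and 4.47 CPM in stress. Of 7 tested markers of immature granule neurons, Dcx lay below all controls, and the sum over 8 was 528.4 to 573.5 CPM in controls and 430.8 to 562.5 CPM in stress, with no marker at 0. The part of these cells in Ezh2 was not tested.

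The lysine 9 methyltransferases had log2 fold changes of -0.06 to 0.10 and overlapping groups. Ehmt2 was at 150.6, 155.3 and 157.4 CPM in controls and 156.6, 163.2 and 177.9 CPM in stress. Suv39h1, the lowest of the 4 per length and a methyltransferase of heterochromatin, was at 21.7, 23.7 and 24.3 CPM in controls and 23.9, 23.9 and 25.7 CPM in stress. Ehmt1 had a log2 fold change of -0.06. For Setdb1, the partner of KAP1 at silenced repeats, the interval was -0.19 to 0.12. The 11 related lysine 9 genes had a median of -0.0045 and none passed. Cdyl, a chromodomain corepressor with the list's smallest p, was at 36.4 to 40.9 CPM in controls and 29.2 to 37.0 CPM in stress, a log2 fold change of -0.23.

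The 3 demethylases of the set had positive log2 fold changes, from 0.04 to 0.23, with overlapping groups. Kdm6b, or JMJD3, which acts on lysine 27 and is induced by signalling, was the lowest per length. It was at 17.4, 14.0 and 14.4 CPM in controls and 17.1, 20.3 and 16.3 CPM in stress, a log2 fold change of 0.23 (SE 0.13) with edgeR's adjusted p at 0.691, and 0.13 with stress replicate 2 left out. 286 of its exon bases are overlapped by Kdm6bos on the opposite strand. Kdm1a, the highest, was at 84.6, 93.8 and 93.1 CPM in controls and 85.8, 96.5 and 96.8 CPM in stress, and Kdm5c, an X-linked demethylase of lysine 4, had a log2 fold change of 0.08.

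Beyond the set, 174 tested genes of 11 related lists held none past the threshold, and 9 at an unadjusted p under 0.05 by edgeR, 5 higher and 4 lower, or 5.17% against 8.71% of all tested genes. Kdm4b, a demethylase of lysine 9, had the smallest p of the other histone lysine demethylases. It was at 75.3, 74.8 and 75.8 CPM in controls and 90.9, 86.5 and 91.7 CPM in stress, a log2 fold change of 0.25 (SE 0.07) with edgeR's adjusted p at 0.304. The SAGA and ATAC subunit gene Tada3, which shares complexes with Kat2a, was at 17.9 to 21.4 CPM in controls and 22.6 to 25.5 CPM in stress, a log2 fold change of 0.32. Tada2a, Tada2b and Trrap, of the same list as Tada3 and named after their values were seen, had overlapping groups. Tada2a was at 23.5 to 28.9 CPM in controls and 21.4 to 23.9 CPM in stress. The methyltransferase gene Smyd2 was at 48.9 to 57.7 CPM in controls and 42.1 to 47.0 CPM in stress, at -0.31. Prmt3, an arginine methyltransferase of a ribosomal protein, was at 28.8 to 32.7 CPM in controls and 24.7 to 26.9 CPM in stress, at -0.25. The groups did not overlap for Kdm4b, Tada3, Smyd2 and Prmt3. This held for 23 of the 174 related genes, or 13.2%, against 14.6% of all tested genes. For the genes with the smallest p among 26 corepressor subunits and 15 acetyl-lysine readers, Sap18 and Brd7, the groups overlapped, with log2 fold changes of 0.15 and -0.11.

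**Figure D4:**
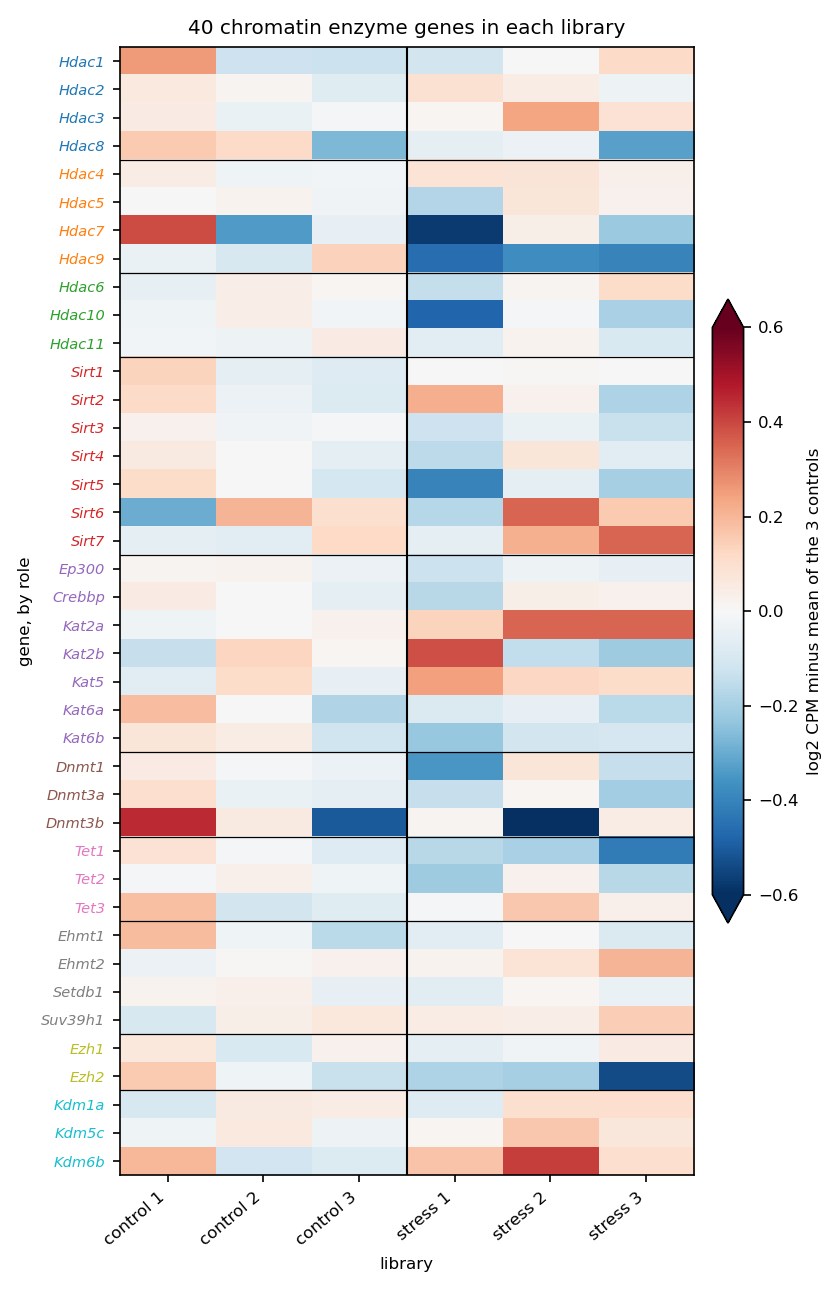
Colour gives log2 CPM of each gene minus the mean of the 3 controls, with genes in rows by role (each with its own label colour) and the 6 libraries in columns. Colours are limited to 0.6 either way, which Dnmt3b in stress replicate 2 passes. Hdac9 is blue in all 3 stress libraries and Kat2a red, while Hdac10 and Dnmt1 are blue mainly in stress replicate 1.

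Which library was highest or lowest was counted for each gene, as a description with no test. Control replicate 1 was the highest library for 16 of the 40 genes, or 40%, against 18.8% of all tested genes. Dnmt3a, Ezh1, Ezh2, Tet1, Tet3, Crebbp, Kat6a and Kat6b were among these. With control replicate 1 left out, the log2 difference was -0.008 for Kat6a and -0.06 for Dnmt3a. It was 0.04 for Ehmt1, also highest there, which changed sign, and 0.15 for Tet3. For Ezh2 and Tet1 it was -0.22 and -0.21. Stress replicate 1 was the lowest library for 13, or 32.5%, against 25.2% of all tested genes, and the highest for 5, or 12.5%, against 25.7%. Genes lowest there included Dnmt1, Tet2, Crebbp, Ep300, Hdac5 and Hdac9. With that library left out, the log2 difference was -0.07 for Tet2, -0.04 for Ep300, -0.11 for Kat6b and -0.015 for Setdb1. It was 0.06 for Hdac6 and 0.005 for Sirt4, which both changed sign. Of genes highest there, Kat5 was at 0.11, Hdac4 at 0.06 and Hdac2 at 0.006. Ezh1, Hdac1 and Sirt1, which were neither, also changed sign, to 0.01, 0.05 and 0.002. The median of the 40 genes, as log2 CPM relative to the control mean, was 0.05, -0.002 and -0.04 in control replicates 1, 2 and 3, and -0.07, 0.02 and -0.04 in stress replicates 1, 2 and 3. The medians of the groups overlapped.

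**Figure D5:**
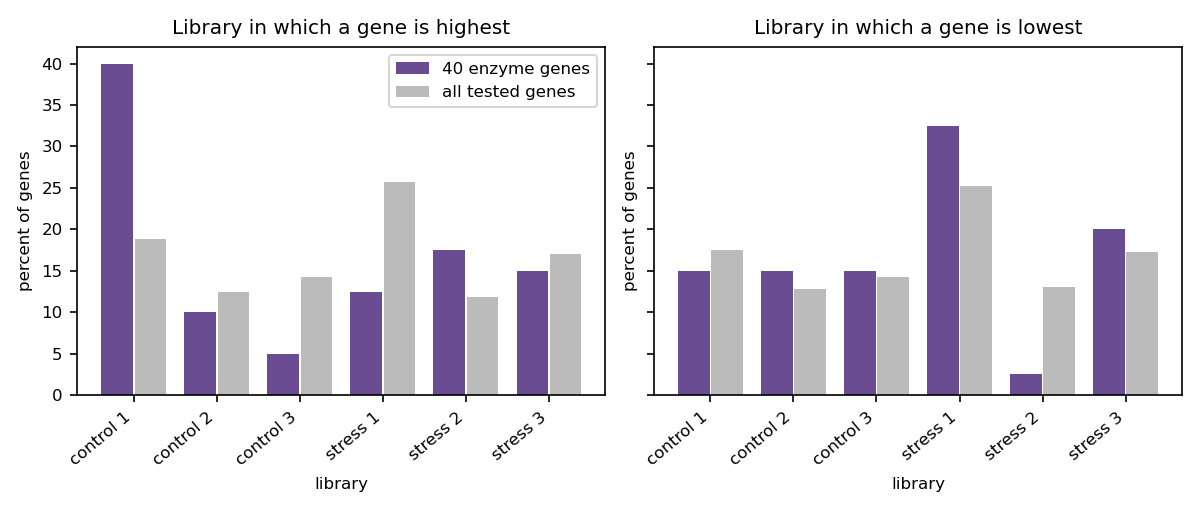
Percent of genes whose highest (left) or lowest (right) level falls in each of the 6 libraries, for the 40 enzyme genes (purple) and all 14058 tested genes (grey). The enzyme genes are highest in control replicate 1 for 40% and lowest in stress replicate 1 for 32.5%.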

How the data were processed

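Total RNA from ventral dentate gyrus was made into stranded, ribosomal RNA-depleted libraries and sequenced in 1 pool, per the labels. The authors deposited whole-number read counts per gene symbol. The submitters' processing notes list edgeR 3.12.0, HTSeq 0.6.1, TopHat2 2.0.9, FastQC 0.11.3 and Trimmomatic 0.33, and the builds mm10 and GRCm38. For the annotation and the strand setting, the sources used here give nothing. Reads assigned to no gene (59.5% to 63.1% per library) and ambiguous reads (0.211% to 0.253%) were left out.

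In R 4.3.3, genes passing edgeR 4.0.16's filterByExpr were scaled by TMM and tested two-sided with its quasi-likelihood test, with a threshold of 0.05 on adjusted p. Standard errors and intervals come from limma 3.58.1 (voom). DESeq2 1.42.0 was an alternative. The fits were tested on simulated counts. Positions and exon lengths are from GENCODE M21 (GRCm38), and promoter windows from RefSeq (GRCm38.p6).

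The members and lists were chosen with earlier results of these data known. Described in full are members whose groups do not overlap, the 8 with the smallest p, the highest and lowest of each role group per length, and the smallest p of each related list. The text marks the genes it adds to these, and some genes of the related and marker lists are not reported here. Floors of counts cover counting error only, and the intervals of fold changes rest on the spread between samples.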

Additional observations from a re-analysis of the deposited data

How the results depend on the processing

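Of 16 alternatives, DESeq2 and edgeR's exact test called 1 of the 40 genes, Hdac9, and the other 14 called 0, a threshold of 0.10 among them. The median log2 fold change of the set ran from -0.043 to -0.0065 over 14 alternatives. Of genes whose groups do not overlap, 2 were higher in stress with relative log expression scaling (6.97% of all tested genes), with no filter (5.74%) and with genes kept at 1 CPM in 3 libraries (7.27%). Upper-quartile scaling gave 3 higher (6.47%) and 5 lower (8.12%). Library totals alone, added after seeing the data, gave 1 higher (5.72%) and 5 lower (8.99%). The additions were Kat5 and Hdac4 among the higher and Ep300 among the lower. With 1 library left out, where fewer samples make such gaps more common, 2 to 7 genes were higher and 4 to 12 lower. There were 7 higher without control replicate 1 (11.9%) or stress replicate 1 (14.5%), 5 without control replicate 3 (11.7%), 3 without control replicate 2 (11.3%) or stress replicate 3 (11.2%), and 2 without stress replicate 2 (12.4%). There were 12 lower without stress replicate 2 (13.7%) and 10 without control replicate 3 (12%), but 5 without stress replicate 1 (14.6%) and 4 without control replicate 1 (12.4%), 4 without control replicate 2 (11.5%) and 4 without stress replicate 3 (11.3%). Hdac9, Tet1, Ezh2, Sirt3 and Kat2a remained among them in each of these settings. With 1 library left out this had to be so, apart from small shifts in scaling, because leaving out a library cannot close a gap. Those settings are therefore no check on these 5 genes. Of the 40 members, 12 changed sign without 1 library, none with a log2 fold change above 0.104 in size, and 28 kept it.

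The groups share replicate numbers, but no label says that a number marks a shared animal or day. Same-numbered libraries deviated with correlations of 0.14, -0.01 and 0.04, and control replicate 2 correlated best with stress replicate 3. With the replicate number as a block, 0 genes of the set and 0 of all genes passed, where 4 of all genes passed without it.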
